A study of Homo sapiens with 4 samples.

Results

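Interferon-stimulated genes and nucleic acid sensors were followed in the human cell line SK-LMS-1, a leiomyosarcoma line labelled as uterine. The 47 members were picked by gene symbol, without use of their values, and all 47 were found among the 19381 genes of the deposited count table. By role they comprised 5 sensors, 11 signalling factors and 31 effectors. Reads were counted per gene in 4 libraries. The untreated group held 2 libraries of SK-LMS-1 cells, labelled as controls, for which no vehicle is stated. The treated group held 2 libraries of the same line kept for 48 h with 50 µM of the compound 2-D08. This flavone blocks the last step by which SUMO, a small protein, is joined to other proteins. All cells grew in the same serum-containing medium, and total RNA was depleted of ribosomal RNA before sequencing. SK-LMS-1 is 1 line, and separate cultures within a group are not stated in the labels. The p-values therefore cover the scatter among these 4 libraries, which may be technical.

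Cells detect foreign or misplaced nucleic acids with a small set of sensor proteins. RIG-I (gene RIGI) and MDA5 (IFIH1) bind RNA in the cytosol and signal through MAVS, cGAS (CGAS) and IFI16 bind DNA and signal through STING (STING1), and TLR3 binds RNA in endosomes. These routes activate IRF3 and IRF7, which switch on the interferon beta gene IFNB1. Secreted interferon binds the receptor chains IFNAR1 and IFNAR2, and STAT2 and IRF9 then act in the complex ISGF3. That complex binds a promoter element, the ISRE, and raises transcription of the antiviral effector genes. Many sensor and signalling genes are themselves interferon-inducible, and SUMO attachment is a known restraint on interferon transcription.

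Library totals ran from 14796702 to 31300635 counts. In untreated replicate 1 and treated replicate 2, 89.0% and 88.8% of nonzero counts were even numbers, against 48.4% and 47.9% in the other libraries, so each group held 1 library of mostly even counts. Whether reads were counted repeatedly there was not tested. Halving these counts gave totals of 14793244 and 15650318, close to the totals of the other libraries, 16628710 and 14796702. In the tests each count stands for 1 independent read. Of the smooth muscle markers chosen to check the label, DES had 0 counts in all 4 libraries and MYOCD 0 to 2, whereas TAGLN lay at 26.6 CPM in untreated and 14.8 CPM in treated cells (CPM, counts scaled to a common library size with TMM factors, mean of 2 libraries). On the TPM scale, a level scaled to transcript length and depth, the 7 smooth muscle markers summed to 45.4 and 39.9 in the untreated and 23.2 and 24.9 in the treated libraries. All genes together summed to 761770 and 745964 TPM untreated and 741705 and 716934 TPM treated. TAGLN (log2 fold change -0.85 ± 0.13) and CNN1 (-1.03 ± 0.26) were lower (edgeR adjusted p of 0.000292 and 0.00796). The other 3 tested did not pass, and of these MYH11 had a value above 0 (0.34 ± 0.51, edgeR adjusted p = 0.637). Endothelial markers summed to 0.49 to 0.79 TPM and epithelial markers to 200.4 to 268 TPM per library, with overlapping groups. Among them PECAM1 was higher in treated cells (2 to 40 counts per library, log2 fold change 1.89 ± 0.55, edgeR adjusted p = 0.0171) and KRT8 lower (-0.47 ± 0.17, edgeR adjusted p = 0.0423). The endothelial gene CDH5 had a value below 0 that did not pass (5 to 24 counts per library, -1.10 ± 0.54, edgeR adjusted p = 0.131). Most of the epithelial sum came from KRT18 (186 to 242 TPM per library), whereas EPCAM lay at 0.58 to 1.08 TPM and CDH1 at 0 to 0.22 TPM. Markers of plasmacytoid dendritic cells, a professional interferon source, summed to 0 to 0.57 TPM per library, with LILRA4 at 0 in all. Among 7 immune markers the leukocyte genes PTPRC and CD3E had 1 to 16 counts per library. The leukocyte actin-bundling gene LCP1 rose from 1.21 and 0.787 CPM to 4.58 and 5.77 CPM, 5.01-fold (2.33 ± 0.30, edgeR adjusted p = 7.26e-05), more than any member. CD68, a lysosomal gene of macrophages, also rose (0.57 ± 0.10, edgeR adjusted p = 0.000503). The summed immune level was 113.5 and 110.6 TPM in the untreated and 151.8 and 175.9 TPM in the treated libraries, most of it from CD68. The part of these shifts in the results below was not tested.

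The promoters of 7 members are shown first because their letters match a core form of the element through which interferon acts. They belong to members that rose, fell or did not pass the test. They are RefSeq windows on GRCh38.p14, from 250 bases before to 50 bases after the annotated start, and capitals mark each match, on either strand, to a pair of GAAA blocks with any 2 bases (NN) between them, a core form of the ISRE. Of members with a match, the first 4 are the called ones with the largest change in either direction and the last 3 those not called with the smallest.
IFI44L: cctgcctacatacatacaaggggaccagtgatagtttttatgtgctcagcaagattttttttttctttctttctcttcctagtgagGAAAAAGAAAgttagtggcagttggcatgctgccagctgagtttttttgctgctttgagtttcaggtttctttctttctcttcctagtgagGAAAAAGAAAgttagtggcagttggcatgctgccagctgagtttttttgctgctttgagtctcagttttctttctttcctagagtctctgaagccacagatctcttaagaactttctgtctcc
IFITM1: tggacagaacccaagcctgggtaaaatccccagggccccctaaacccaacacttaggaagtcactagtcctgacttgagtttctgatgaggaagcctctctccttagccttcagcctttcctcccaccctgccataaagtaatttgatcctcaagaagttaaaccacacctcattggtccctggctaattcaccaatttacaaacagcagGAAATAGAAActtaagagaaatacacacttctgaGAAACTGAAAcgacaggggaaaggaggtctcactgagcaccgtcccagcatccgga
OAS3: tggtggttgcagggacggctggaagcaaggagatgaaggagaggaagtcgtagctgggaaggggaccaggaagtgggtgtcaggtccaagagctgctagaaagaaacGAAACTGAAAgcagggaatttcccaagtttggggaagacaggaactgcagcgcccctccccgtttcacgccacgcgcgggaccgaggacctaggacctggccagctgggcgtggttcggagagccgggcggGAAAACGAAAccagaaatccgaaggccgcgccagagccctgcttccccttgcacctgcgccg
IFI44: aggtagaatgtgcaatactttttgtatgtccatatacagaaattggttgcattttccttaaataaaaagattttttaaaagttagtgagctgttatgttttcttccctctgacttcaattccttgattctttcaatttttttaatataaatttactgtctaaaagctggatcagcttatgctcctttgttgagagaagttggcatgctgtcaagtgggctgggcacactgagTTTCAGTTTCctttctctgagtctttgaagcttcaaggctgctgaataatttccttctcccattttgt
EIF2AK2: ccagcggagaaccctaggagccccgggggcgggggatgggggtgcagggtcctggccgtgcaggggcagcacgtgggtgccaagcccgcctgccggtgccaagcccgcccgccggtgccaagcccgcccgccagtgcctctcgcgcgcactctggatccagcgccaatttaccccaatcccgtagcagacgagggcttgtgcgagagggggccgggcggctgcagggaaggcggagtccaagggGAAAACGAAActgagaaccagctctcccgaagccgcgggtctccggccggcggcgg
IFIT1: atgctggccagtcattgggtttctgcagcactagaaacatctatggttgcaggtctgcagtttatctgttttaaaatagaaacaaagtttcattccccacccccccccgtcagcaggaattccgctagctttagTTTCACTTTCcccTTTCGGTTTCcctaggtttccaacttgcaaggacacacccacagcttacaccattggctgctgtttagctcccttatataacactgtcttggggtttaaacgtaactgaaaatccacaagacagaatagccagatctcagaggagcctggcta
PARP14: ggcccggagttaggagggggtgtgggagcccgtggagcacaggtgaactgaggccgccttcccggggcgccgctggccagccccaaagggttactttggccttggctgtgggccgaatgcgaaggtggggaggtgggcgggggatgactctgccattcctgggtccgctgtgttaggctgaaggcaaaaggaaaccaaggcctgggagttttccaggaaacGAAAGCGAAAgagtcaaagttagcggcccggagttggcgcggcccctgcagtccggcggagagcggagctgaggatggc

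IFI44L lies at chr1:78620198-78620497, IFITM1 at chr11:313790-314089, OAS3 at chr12:112938224-112938523, IFI44 at chr1:78649539-78649838, IFIT1 at chr10:89392373-89392672 and PARP14 at chr3:122680589-122680888, all on the plus strand, and EIF2AK2 lies at chr2:37156931-37157230 on the minus strand. In the IFI44L window a stretch of 85 bases occurs at 2 places, and each copy holds 1 of the matches. Among the 36 members with a window, 22 (61.1%) held the motif, against 1195 of 27305 gene symbols with a window (4.38%). The members were picked as interferon genes, so this excess describes the choice. By outcome, the motif was present in 5 of 6 members called higher, 4 of 8 called lower, 11 of 18 not called and 2 of 4 not tested. With 1 to 3 bases allowed between the blocks (GAAA, then N, NN or NNN, then GAAA), 29 of the 36 members and 10.5% of all symbols held a match. These were 6 of 6 members called higher, 7 of 8 called lower, 12 of 18 not called and 4 of 4 not tested. Matching letters are a description and not evidence of binding. CGAS, STING1, IRF3, IRF7, IFNAR2, USP18, IFIT2, MX2, OAS2, OASL and IFITM2 were not matched to a window.

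**Figure D1:**
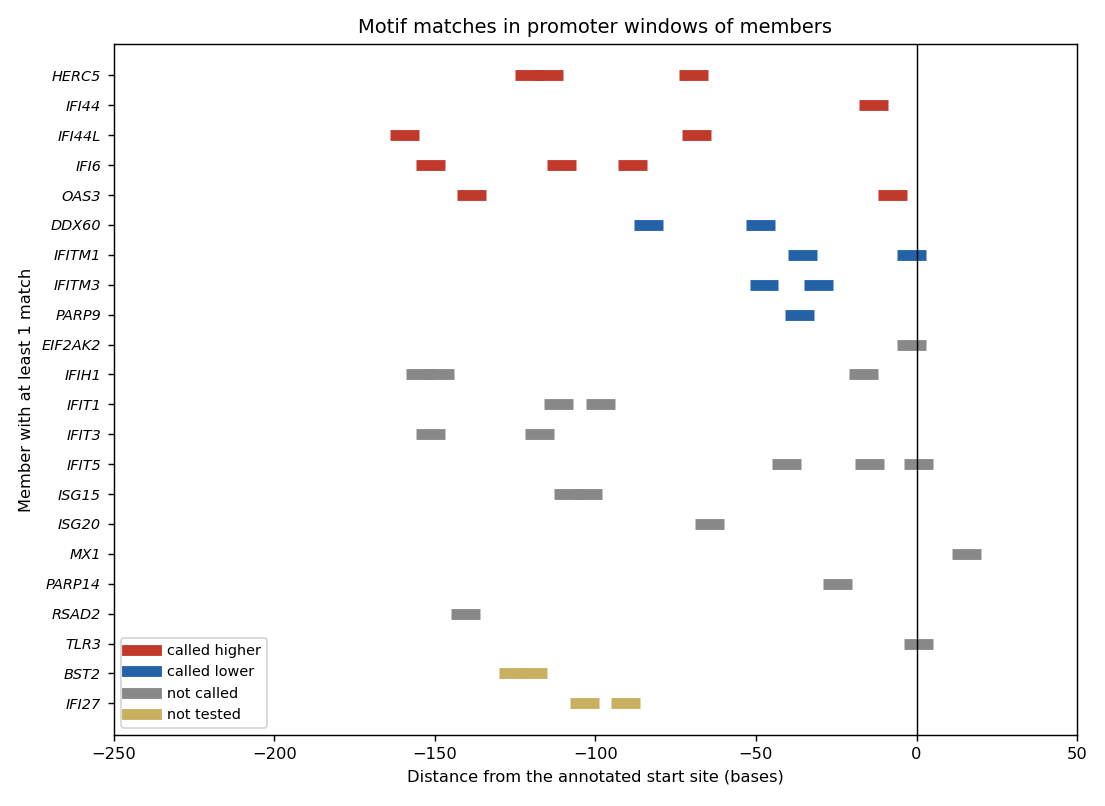
Position of each match to a pair of GAAA blocks 2 bases apart in the promoter windows of the 22 members that hold one, in bases from the annotated start (horizontal axis, negative before the start), with 1 row per member coloured by its test outcome. For genes with several annotated starts, the window of lowest coordinate among those with a match is drawn. The rows are 5 members called higher, 4 called lower, 11 not called and 2 not tested.

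The question put to these genes was which of their transcripts differed after exposure to the compound. The members did not move as 1 block: 8 were higher and 9 lower in treated cells, and 25 of the 42 tested did not pass. The largest rise was that of the DNA sensor gene CGAS, and the largest falls among members above 10 CPM were those of STAT2 and IFI16. IFNB1 had no read in any library. IFIT1, ISG15 and MX1, widely used as interferon markers, did not pass the test, whereas IFI44L was called higher and IFITM3 lower. The test was edgeR's quasi-likelihood test (two-sided) with Benjamini-Hochberg adjustment over all 12906 tested genes, and a gene was called at an adjusted p under 0.05. The 17 calls were 40.5% of tested members, against 33.9% of all tested genes. Calls upward made up 19.0% of members against 17.1% of all genes, and calls downward 21.4% against 16.9%. Levels of the 2 groups did not overlap for 32 of 42 members (76.2%), against 67.5% of all tested genes. The members' median log2 fold change was -0.02, beside -0.0033 for all tested genes, and values ran from -1.13 to 1.65. The list as a whole thus lay near the background in its median and its calls upward, with slightly larger shares in the other counts. Without untreated replicate 1 the fit called 6 members higher and 3 lower, without treated replicate 1 it called 13 and 14, and limma with TPM values called 4 and 3. In bulk RNA, fewer cells of a type and less RNA per cell cannot be told apart.

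**Figure D2:**
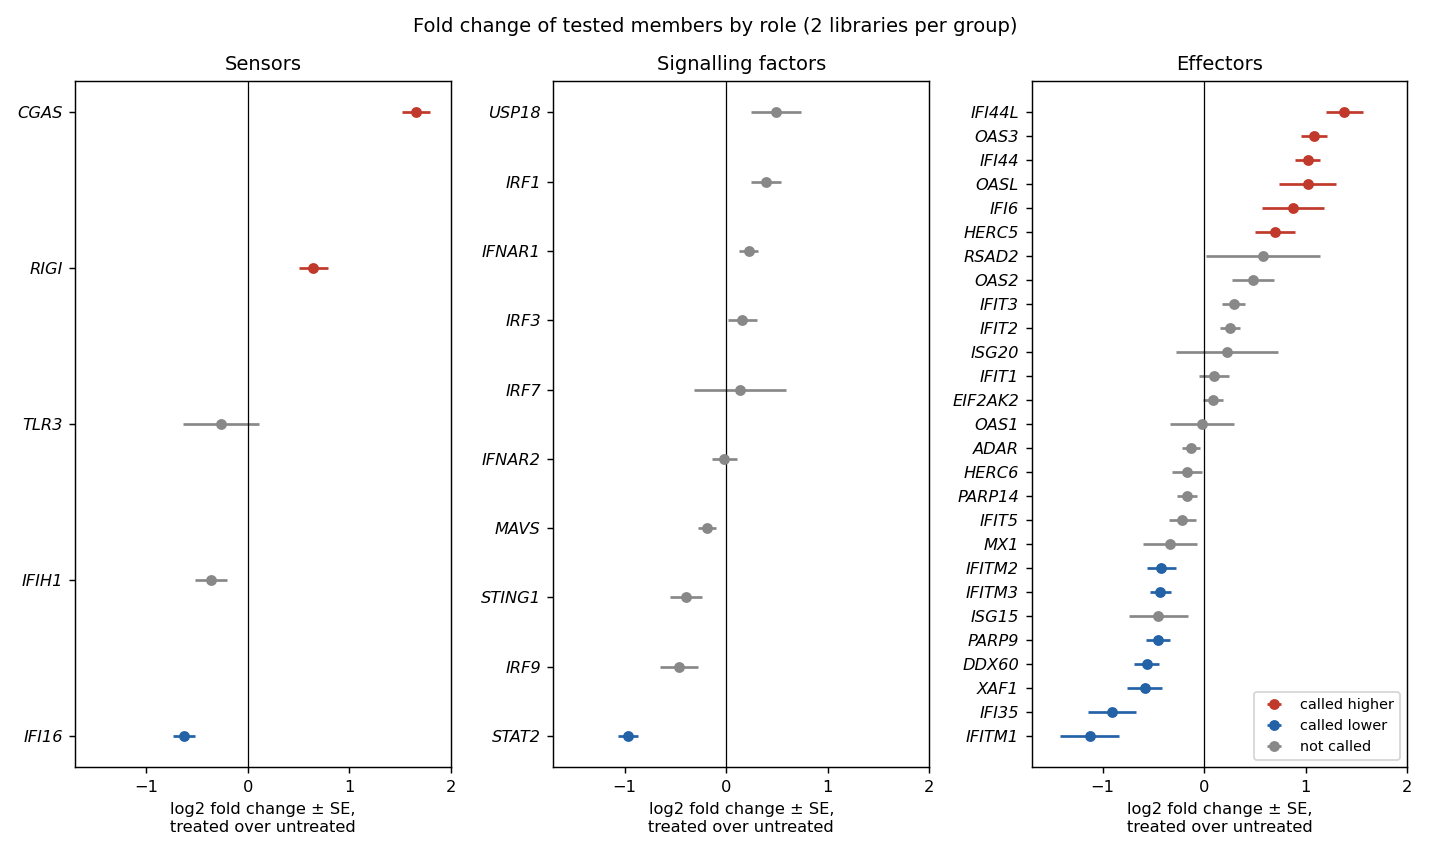
Log2 fold change of treated over untreated cells (horizontal axis, bars show the standard error, 2 libraries per group) for the 42 tested members in panels for sensors, signalling factors and effectors. Red points were called higher, blue called lower and grey not called. CGAS has the highest value (1.65) and IFITM1 the lowest (-1.13).

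Among the 5 sensors, 2 were higher, 1 lower and 2 did not pass, so that 60% were called against 33.9% of all tested genes. CGAS encodes the enzyme that senses cytosolic DNA and makes the messenger cGAMP (chromosome 6, 73413515 to 73452276, GRCh38, GENCODE release 29). Untreated libraries gave 12.0 and 13.6 CPM, and treated libraries 36.3 and 43.3 CPM. Both treated libraries were well above both untreated ones, a 3.14-fold rise (log2 fold change 1.65 ± 0.14 SE, n = 2 per group, edgeR adjusted p = 1.52e-06). RIGI, the cytosolic RNA sensor RIG-I, lay at 14.8 and 14.5 CPM untreated and 21.3 and 24.4 CPM treated. The groups did not overlap, and the gene rose by 0.65 ± 0.14 on the log2 scale (edgeR adjusted p = 0.00325). The call was lost with limma on TPM values, log2-transformed after adding 1 or 0.1 (adjusted p of 0.0952 and 0.096).

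IFI16, a nuclear DNA-binding sensor, was the most abundant sensor by TPM. Untreated libraries gave 253 and 276 CPM, and treated libraries 153 and 188 CPM. Both treated values were below both untreated ones, and the gene fell by 0.63 ± 0.11 (edgeR adjusted p = 0.000544). Because of IFI16 the summed level of the 5 sensors went from 166 and 178 TPM to 120 and 136 TPM, although CGAS rose from 5.69 and 6.38 TPM to 16.9 and 20.7 TPM. IFIH1, the RNA sensor MDA5, lay at 14.8 and 17.0 CPM untreated and 11.6 and 12.9 CPM treated. Its groups did not overlap, but the difference did not pass (-0.36 ± 0.16, edgeR adjusted p = 0.0907). It passed with the replicate block and without treated replicate 2. The endosomal receptor gene TLR3 was scarce, 1.62 and 1.39 CPM against 1.40 and 1.17 CPM, with overlapping groups (-0.27 ± 0.37, edgeR adjusted p = 0.61). The RNA sensors RIGI and IFIH1, close relatives in sequence and similar in untreated level, thus had fitted values of opposite sign, only 1 of them called.

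Among the 11 signalling factors 1 was lower, 0 were higher and 9 did not pass, and IFNB1 was not tested. The call was 10.0% of tested factors, against 33.9% of all genes. With the replicate number as a block, MAVS, STING1 and IRF9 also passed as lower and IRF1, IFNAR1 and USP18 as higher. MAVS, STING1, IRF9 and IFNAR1 passed without treated replicate 1 too. STAT2, the subunit that gives ISGF3 its activating domain (chromosome 12, 56341597 to 56360155), lay at 69.9 and 69.3 CPM untreated and at 36.3 and 34.9 CPM treated. The libraries of each group lay close together, and the level was 1.95-fold lower in treated cells (log2 fold change -0.97 ± 0.10, n = 2 per group, edgeR adjusted p = 1.2e-05). IRF9, the DNA-binding subunit of the same complex, lay at 9.30 and 8.54 CPM untreated and 6.98 and 6.13 CPM treated. Those groups did not overlap either, but the difference did not pass (-0.46 ± 0.19, edgeR adjusted p = 0.0732).

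MAVS and STING1, the adaptor genes among the members, had values below 0 that did not pass. MAVS, the adaptor of the RNA sensors, lay at 250 and 246 CPM untreated and 222 and 214 CPM treated (-0.19 ± 0.09, edgeR adjusted p = 0.12). STING1, the adaptor of cGAS, lay at 21.8 and 20.1 CPM untreated and 18.3 and 13.9 CPM treated (-0.40 ± 0.16, edgeR adjusted p = 0.0663). STING1 also passed with limma-voom. CGAS and the adaptor it signals through therefore had fitted values of opposite sign.

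The IRF genes did not pass the test. IRF1, a transcription factor inducible by interferon and NF-kappa-B, came closest, at 15.3 and 14.8 CPM untreated against 21.5 and 18.5 CPM treated (0.40 ± 0.15, edgeR adjusted p = 0.0503). Its groups did not overlap, and it also passed with RLE size factors, with the counts halved and without treated replicate 2. IRF3, present before any infection in most cells, had 29.5 and 23.1 CPM against 32.3 and 27.1 CPM, with overlap (0.16 ± 0.14, edgeR adjusted p = 0.414). IRF7, the inducible relative that amplifies the response, was scarce and uneven after treatment, at 1.48 and 1.27 CPM untreated and 2.39 and 0.908 CPM treated (0.14 ± 0.45, edgeR adjusted p = 0.837). Its sign turned with limma-voom (-0.11) and without treated replicate 1 (-0.62).

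Both receptor chains were present in all libraries. IFNAR1 lay at 128 and 130 CPM untreated and 142 and 160 CPM treated, without overlap (0.22 ± 0.09, edgeR adjusted p = 0.0819). IFNAR2 lay between 25.6 and 27.4 CPM in all 4 libraries (-0.02 ± 0.12, edgeR adjusted p = 0.932), and its sign turned on both TPM scales (0.15 and 0.16). USP18, which removes ISG15 from proteins and blocks the receptor, had 4.11 and 3.09 CPM untreated and 5.78 and 4.64 CPM treated (0.49 ± 0.24, edgeR adjusted p = 0.132). IFNB1 had 0 counts in each library, and at the depth of these libraries 3 counts would amount to 0.0972 to 0.199 CPM. Its transcript was thus not detectable at this depth, which covers counting error only.

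Effector genes were split, with 6 higher, 7 lower and 14 not called among the 27 tested. The calls were 48.1% of tested effectors (22.2% upward and 25.9% downward), against 33.9% of all tested genes (17.1% and 16.9%). The neighbours IFI44L and IFI44 on chromosome 1 rose together. IFI44L, an interferon-induced cytoplasmic protein gene, lay at 5.93 and 6.05 CPM untreated and at 14.0 and 17.0 CPM treated, a 2.60-fold rise (1.38 ± 0.18 SE, n = 2 per group, edgeR adjusted p = 6.96e-05). IFI44 lay at 18.7 and 21.0 CPM untreated and at 40.5 and 39.6 CPM treated (1.02 ± 0.12, edgeR adjusted p = 3.62e-05). For both genes each treated library was above each untreated one.

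The oligoadenylate synthetases, which on binding double-stranded RNA make the activator of RNase L, did not move alike. OAS3, on chromosome 12 (112938352 to 112973249), lay at 22.2 and 19.3 CPM untreated and 47.2 and 41.6 CPM treated (1.08 ± 0.13, edgeR adjusted p = 2.83e-05). Its neighbour OAS2 had 4.65 and 4.06 CPM against 5.91 and 6.29 CPM, without overlap and without a call (0.48 ± 0.21, edgeR adjusted p = 0.0931), though it passed with the replicate block. OAS1, on the other side of OAS3, lay between 1.94 and 2.16 CPM in all libraries (-0.02 ± 0.32, edgeR adjusted p = 0.966), and its sign turned on the TPM scales (0.034 and 0.048). OASL, an OAS-like protein without synthetase activity, went from 2.16 and 2.78 CPM to 6.05 and 4.02 CPM (1.02 ± 0.28, edgeR adjusted p = 0.0124). OASL no longer passed with TPM values (adjusted p of 0.0888 and 0.0903) and without untreated replicate 1 (0.122). The difference between the fold changes of these neighbours was not tested.

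HERC5, the ligase that attaches ISG15 to proteins, went from 5.33 and 4.96 CPM to 7.51 and 9.08 CPM (0.70 ± 0.20, edgeR adjusted p = 0.0152). IFI6, a mitochondrial and endoplasmic reticulum protein gene, went from 2.29 and 1.51 CPM to 2.92 and 4.12 CPM (0.87 ± 0.30, edgeR adjusted p = 0.0393). Neither pair of groups overlapped. HERC5 no longer passed with TPM values (adjusted p of 0.135 and 0.144) and without either untreated library or treated replicate 2 (0.0756 to 0.106). IFI6 lost its call with library size only (0.0502), with DESeq2 (0.12), on both TPM scales (0.117 on each), without untreated replicate 2 (0.247) and without treated replicate 2 (0.294).

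The 3 IFITM genes, neighbours on chromosome 11 (307631 to 327537) that encode membrane proteins blocking virus entry, were all lower. IFITM3 was the most abundant member by length-scaled level, at 395 and 367 TPM untreated and 299 and 234 TPM treated. On the CPM scale it went from 117 and 111 to 91.8 and 77.5 (-0.43 ± 0.10 SE, n = 2 per group, edgeR adjusted p = 0.00507). IFITM2 went from 30.3 and 23.4 CPM to 20.6 and 19.8 CPM (-0.42 ± 0.14, edgeR adjusted p = 0.0354), and IFITM1 from 3.94 and 3.15 CPM to 1.79 and 1.52 CPM (-1.13 ± 0.29, edgeR adjusted p = 0.00931). No treated library reached the level of an untreated one for any of the 3 genes. They are close copies of one another and the annotated IFITM2 and IFITM1 overlap on the same strand, so their separate values are uncertain. Without untreated replicate 1 all 3 lost their calls (adjusted p of 0.149, 0.582 and 0.093 for IFITM1, IFITM2 and IFITM3). IFITM2 and IFITM3 also did not pass with TPM values (adjusted p of 0.239 and 0.234, and of 0.0559 and 0.0536). IFITM2 further lost it with library size only (0.0536), with DESeq2 (0.0616) and with even-count status as a term (0.0741).

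The other 4 effectors called were lower as well. DDX60, a helicase that promotes RIG-I signalling, went from 32.4 and 34.0 CPM to 21.2 and 23.3 CPM (-0.57 ± 0.12, edgeR adjusted p = 0.00282). PARP9, an ADP-ribosyltransferase family member that enhances interferon signalling, went from 34.5 and 34.8 CPM to 24.8 and 25.6 CPM (-0.46 ± 0.12, edgeR adjusted p = 0.00794). XAF1, a proapoptotic antagonist of XIAP, went from 17.2 and 18.6 CPM to 9.97 and 13.5 CPM (-0.59 ± 0.17, edgeR adjusted p = 0.0162). IFI35, a leucine zipper protein gene, went from 7.15 and 5.45 CPM to 3.85 and 3.05 CPM (-0.91 ± 0.24, edgeR adjusted p = 0.00923). The groups did not overlap for any of these genes. None of the 4 passed with TPM values (adjusted p of 0.0783 to 0.261). PARP9, XAF1 and IFI35 lost them without untreated replicate 1 (0.109, 0.056 and 0.187), and PARP9 and XAF1 without untreated replicate 2 (0.0866 and 0.092).

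**Figure D3:**
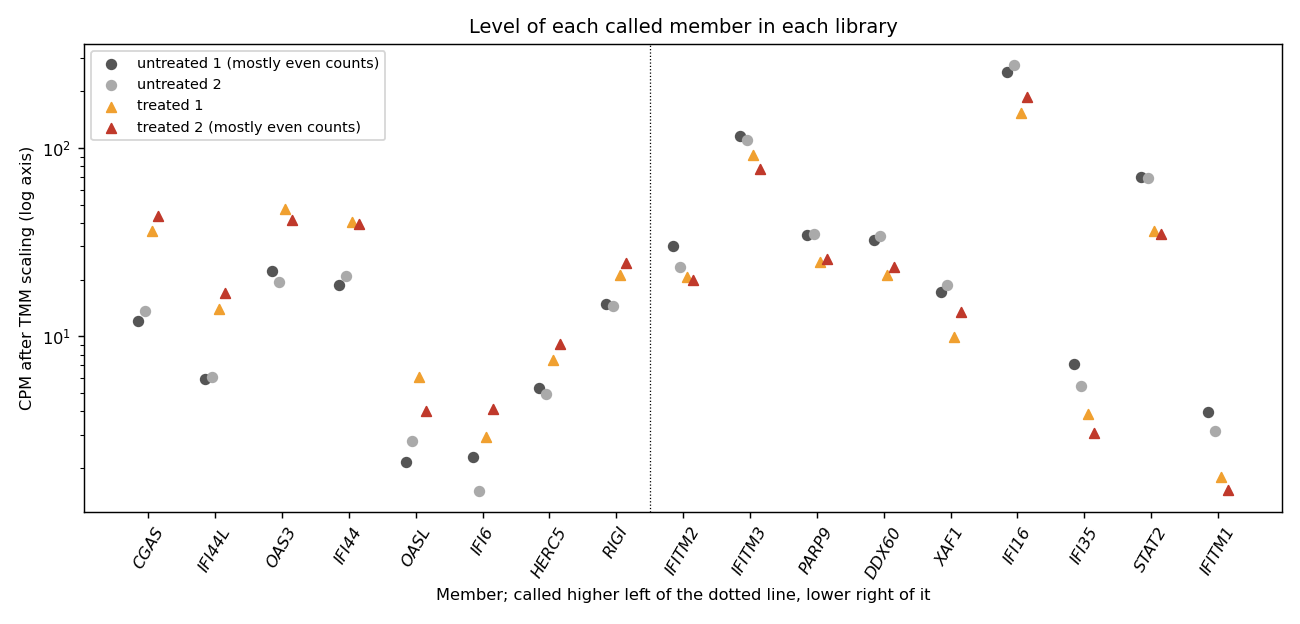
Level of the 17 called members (CPM after TMM scaling, log axis) in each of the 4 libraries, circles for untreated and triangles for treated, ordered by fold change with the 8 called higher left of the dotted line. Treated and untreated libraries do not overlap for any of the 17, and IFITM2 has the narrowest gap (23.4 and 20.6 CPM). Among all tested genes the groups did not overlap for 67.5%. The 17 were called on these same values, so their separation is no further support.

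The effectors that did not pass included IFIT1, ISG15 and MX1, which are widely used to score an interferon response. Other interferon-stimulated effectors did pass, 6 of them higher, among them IFI44L, IFI44 and IFI6, and 7 lower. IFIT1, an RNA-binding translation inhibitor, lay at 19.1 and 21.4 CPM untreated and 19.1 and 23.7 CPM treated, with overlapping groups (0.10 ± 0.15, edgeR adjusted p = 0.637). ISG15, the ubiquitin-like modifier, lay at 7.82 and 3.75 CPM untreated and 4.78 and 4.02 CPM treated, so that the untreated libraries enclosed both treated ones (-0.45 ± 0.29, edgeR adjusted p = 0.244). Its sign turned to 0.22 without untreated replicate 1, and it passed as lower without untreated replicate 2 (-0.85) and without treated replicate 1. MX1, a GTPase that traps viral capsids, lay at 3.98 and 3.15 CPM untreated and 2.59 and 3.05 CPM treated (-0.34 ± 0.26, edgeR adjusted p = 0.341).

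IFIT2 and IFIT3, binding partners of IFIT1, were just short of the threshold. IFIT2 lay at 55.1 and 56.5 CPM untreated and 66.5 and 66.8 CPM treated (0.26 ± 0.10, edgeR adjusted p = 0.0559), and IFIT3 at 39.8 and 45.5 CPM against 50.6 and 53.2 CPM (0.29 ± 0.11, edgeR adjusted p = 0.057). Their groups did not overlap, and both passed with the replicate block and without treated replicate 1, IFIT3 also with limma-voom. IFIT5, the fourth gene of this row on chromosome 10, had a value of opposite sign (-0.21 ± 0.13, edgeR adjusted p = 0.226) and passed without treated replicate 1.

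EIF2AK2, the RNA-activated kinase PKR that halts translation, and ADAR, which edits double-stranded RNA and so limits its sensing, were abundant. EIF2AK2 lay at 259 and 274 CPM untreated and 261 and 305 CPM treated (0.09 ± 0.10, edgeR adjusted p = 0.509). ADAR lay at 233 and 230 CPM untreated and 209 and 214 CPM treated, without overlap (-0.13 ± 0.09, edgeR adjusted p = 0.262). PARP14, the larger neighbour of PARP9, had -0.17 ± 0.10 and HERC6, the neighbour of HERC5, -0.17 ± 0.15 on the log2 scale (edgeR adjusted p of 0.189 and 0.403). PARP14 passed with the replicate block and without treated replicate 2, and EIF2AK2 without treated replicate 1.

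RSAD2 (viperin, which makes a chain-terminating nucleotide) and ISG20 (an exonuclease) had 9 to 26 counts per library and fitted values of 0.58 ± 0.56 and 0.22 ± 0.50 (edgeR adjusted p of 0.45 and 0.762). Another 4 effectors were too scarce to test. MX2 had 4 and 4 counts untreated and 2 and 8 treated, CMPK2 4 and 4 against 3 and 8, and BST2 10 and 2 against 4 and 10. IFI27, a mitochondrial protein gene with a strong interferon response in many tissues, had 2 and 0 counts untreated and 4 and 14 treated. These counts overlap between groups for MX2, CMPK2 and BST2 and are near the floor of 3 counts, so no fold is given.

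Some neighbouring members were called in the same direction and others were not. Of 9 groups of members lying within 200000 bases of one another, the IFI44L and IFI44 pair was called higher throughout and the 3 IFITM genes lower throughout. In the PARP9 and PARP14 pair, the HERC6 and HERC5 pair and the OAS trio, 1 gene of each was called. In the IFIT row, the MX pair, the CMPK2 and RSAD2 pair and the IFNAR pair none was. CMPK2 and RSAD2 overlap on opposite strands, and whether strand was used in counting is not given in the sources used here.

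**Figure D4:**
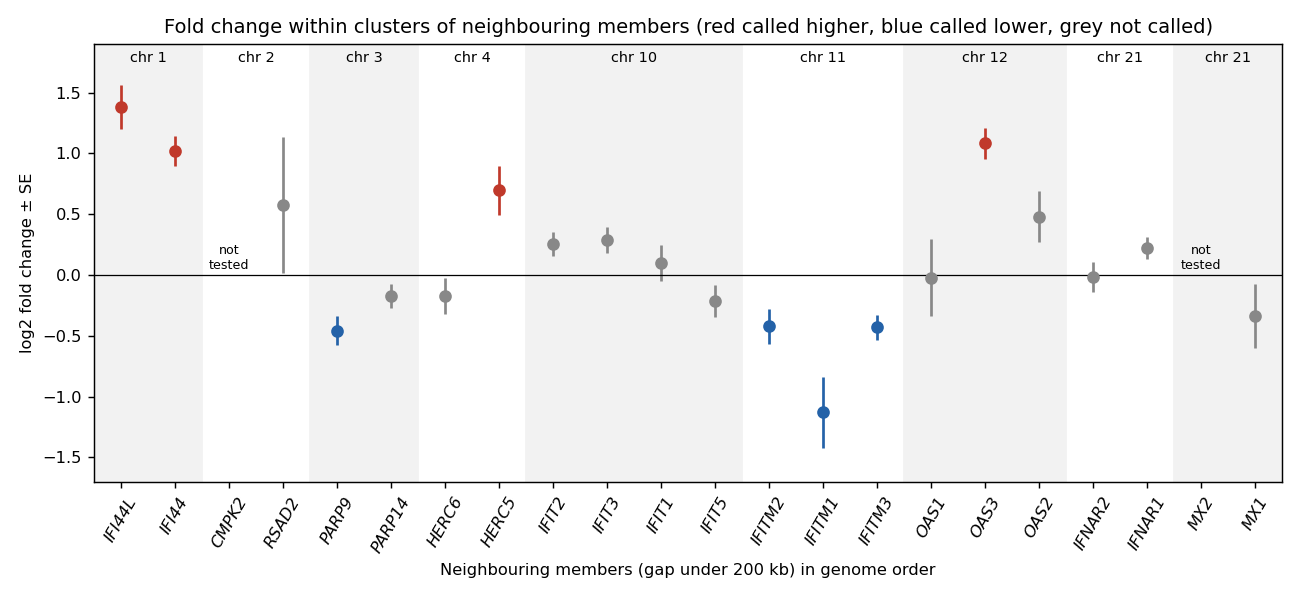
Log2 fold change with its standard error (vertical axis) for members in 9 groups of neighbouring genes, in genome order and shaded by group. The IFI44L and IFI44 points lie at 1.38 and 1.02, the IFITM points between -0.42 and -1.13, and the IFIT points between -0.21 and 0.29.

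Further genes of the pathway came from 4 lists. Of 13 other interferon genes 8 had 0 counts everywhere, and IFNE, an epithelial interferon of the reproductive tract, was the 1 tested. IFNE lay at 3.17 and 4.18 CPM untreated and 2.13 and 4.21 CPM treated, with overlap (-0.13 ± 0.31, edgeR adjusted p = 0.775). Its sign turned without untreated replicate 2 (0.048) and without treated replicate 1 (0.22).

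Of 22 receptors and signal relays 20 were tested, with 4 higher and 2 lower, 30% in all against 33.9% of all tested genes. The kinase gene JAK1, which acts with the interferon receptor, went from 348 and 345 CPM to 234 and 257 CPM (-0.49 ± 0.09, edgeR adjusted p = 0.000923). The receptor chain gene IL10RB fell by 0.53 ± 0.15 on the log2 scale (edgeR adjusted p = 0.0153). TRAF3 (0.43 ± 0.10) and the kinase gene TBK1 (0.36 ± 0.10), which act between the adaptors and IRF3, rose (edgeR adjusted p of 0.00353 and 0.0156). TRAF3 and TBK1 lost their calls on both TPM scales and without untreated replicate 2, and TBK1 also without untreated replicate 1. IL10RB lost its call on both TPM scales and when either untreated library or treated replicate 2 was left out.

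Of 24 further sensors and their regulators 18 were tested, with 0 higher and 4 lower. NLRX1, a mitochondrial regulator of MAVS, went from 13.7 and 10.3 CPM to 6.71 and 5.06 CPM (-1.06 ± 0.21, edgeR adjusted p = 0.00153). UNC93B1, which carries Toll-like receptors to endosomes, had -0.77 ± 0.20, the DNA sensor gene AIM2 -0.73 ± 0.20 and NLRC5, a regulator of MHC class I genes, -0.91 ± 0.27 (edgeR adjusted p of 0.00892, 0.0112 and 0.019). Without untreated replicate 1 these 3 were not called (adjusted p of 0.202, 0.0559 and 0.0511), and NLRC5 moved to -0.036 and -0.068 on the TPM scales. AIM2 and NLRC5 were also lost without untreated replicate 2 (0.0964 and 0.0707), UNC93B1 on both TPM scales (0.128 and 0.127), and NLRC5 with DESeq2 (0.0556) and without treated replicate 2 (0.147). Calls in this list were 22.2% of tested genes, below the 33.9% of all genes.

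Of 46 further interferon-stimulated genes 42 were tested, with 5 higher and 9 lower, 33.3% in all against 33.9% of all tested genes. Calls upward made up 11.9% against 17.1%, and calls downward 21.4% against 16.9%. GBP2, an interferon-induced GTPase, went from 6.10 and 5.51 CPM to 0.930 and 2.07 CPM (-1.85 ± 0.30, edgeR adjusted p = 0.000446). RNF213, a large ubiquitin ligase, fell by 0.62 ± 0.09 and WARS1, the tryptophanyl-tRNA synthetase, by 0.53 ± 0.09, whereas TENT5A rose by 0.61 ± 0.11 (edgeR adjusted p of 0.00022, 0.000562 and 0.000811). The GBP2 value was -2.65 without treated replicate 2 and -1.49 without treated replicate 1. GBP2 lost its call with log2(TPM + 0.1) (adjusted p = 0.0555), and RNF213 and TENT5A lost theirs on both TPM scales.

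The calls differed in how they withstood other settings. Of the 17, CGAS, STAT2, IFI16, OAS3, IFI44 and IFI44L passed in all 15 alternatives with a test, and the other 11 lost the call in at least 1. With the counts of the mostly even libraries halved all 17 passed. Within the pair of libraries of mostly even counts and within the other pair, all 17 had the reported direction. The groups did not overlap for any of the 17, so this direction was fixed beforehand and adds no support. The CGAS value was 1.85 in the first pair and 1.42 in the second, and that of IFI44 was 1.08 and 0.95. The IFITM2 value was -0.61 in the first pair and -0.19 in the second.

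**Figure D5:**
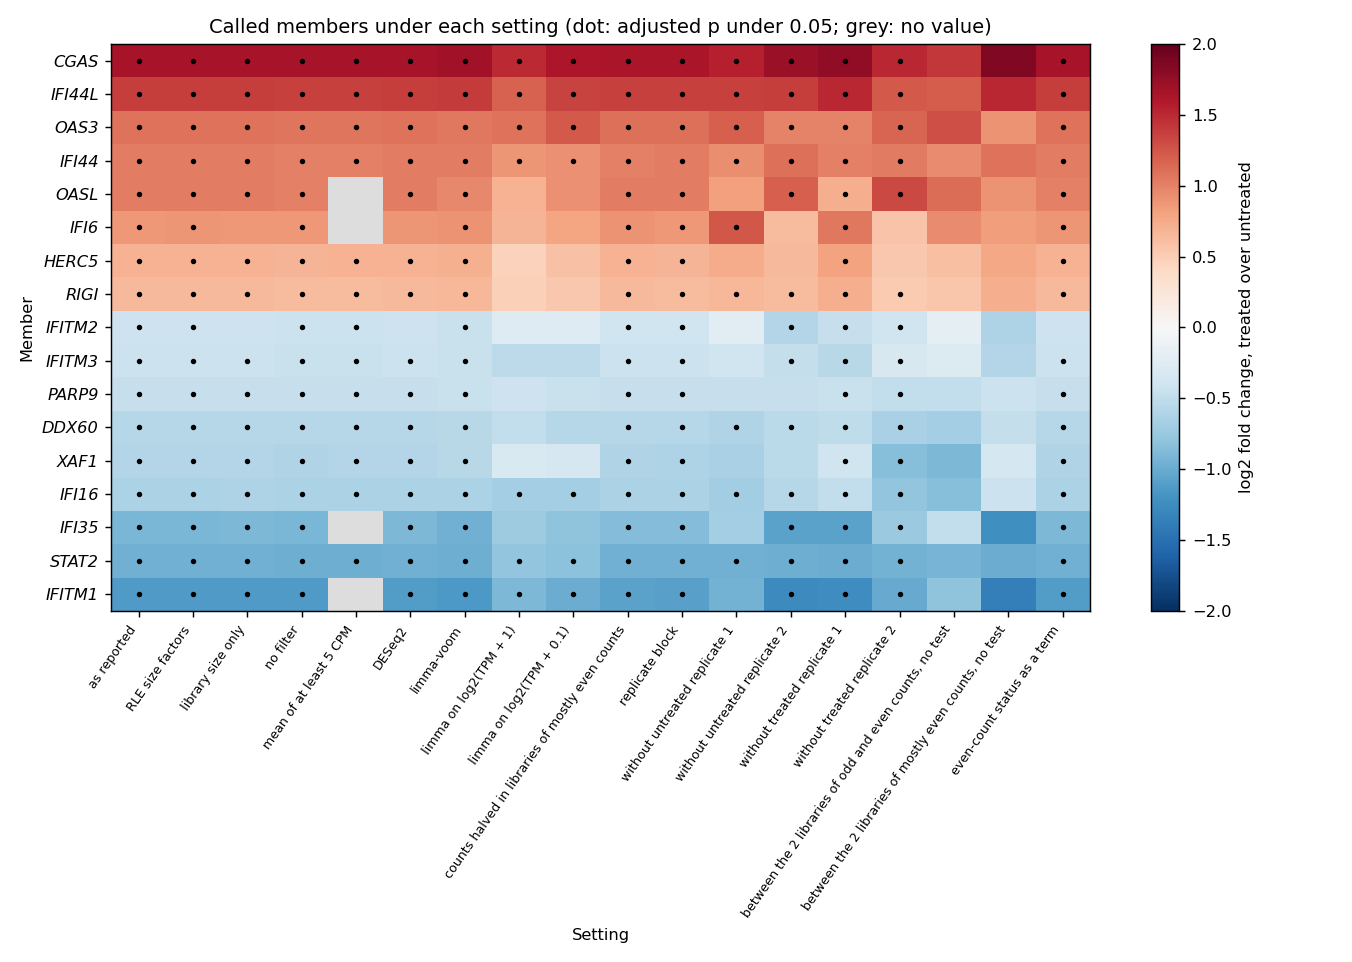
Log2 fold change (colour) of the 17 called members (rows) as reported and under each alternative (columns), with a dot where the adjusted p was under 0.05 and grey where a gene was not tested. The rows of CGAS, IFI44L, OAS3, IFI44, STAT2 and IFI16 hold a dot in every column with a test that gave a value. The columns for the TPM scales hold 7 dots each.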

How the data were processed

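The submitters' processing notes name GRCh38 as the build and list STAR 2.7.8a, cutadapt 3.4 and DESeq2. How reads were counted, whether by strand and on which annotation, is not given in the sources used here. For each library, the authors deposited read counts as whole numbers without normalisation, and TPM values. The TPM values were used for levels between genes, for sums over markers and sensors and for 2 alternatives. Another deposited table, named as normalised counts, was not used.

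Counts were filtered with filterByExpr (minimum count 10), scaled with TMM factors and tested with edgeR 4.0.16 (robust quasi-likelihood, R 4.3.3). Alternatives used limma 3.58.1 (with a mean-variance trend on the TPM scales) and DESeq2 1.42.0. Standard errors came from the F statistic. The scripts were tested on simulated data. Positions are from GENCODE release 29 (GRCh38), where all 47 members were matched, and promoters from RefSeq (GRCh38.p14), where 36 were.

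Members were picked by symbol and not by value, but earlier results of these data were known when members and lists were chosen. Named were all members called, all sensors and signalling factors of at least 1 CPM on average, and up to 4 genes of that level with the smallest p per further list. No label ties equal replicate numbers to a shared culture or day, so the block is an alternative.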

Additional observations from a re-analysis of the deposited data

How the results depend on the processing

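Comparisons between the pairs of libraries of like count parity and the fit with that parity as a term were chosen after seeing the data. The count of called genes, 4376 as reported, was 1598 (702 higher, 896 lower) with limma on log2(TPM + 1) and 1608 (714 and 894) on log2(TPM + 0.1). On these scales 4 members were called higher and 3 lower, on each, among effectors 3 higher and 1 lower, and of the 24 further pathway genes called 7 and 6 passed. The cause was not tested. No label says that equal replicate numbers mark a pairing, and deviations of libraries with equal numbers correlated at 0.15 over 12906 genes and 0.40 over 10502 genes of at least 5 CPM. Under the replicate block 6239 genes were called, 14 members higher and 14 lower. All 17 member calls remained, joined by IFIH1, MAVS, STING1, IRF1, IRF9, IFNAR1, USP18, IFIT2, IFIT3, OAS2 and PARP14. Leaving out a library gave 1866 to 6077 called genes (higher 949 to 2931, lower 917 to 3146), with the smallest number when untreated replicate 1 was left out. In these fits 6 to 13 members were called higher and 3 to 14 lower, most without treated replicate 1, among effectors 4 to 10 and 1 to 9, and 11 to 32 further pathway genes. A lone library was there assumed to vary like the other group. No called member changed sign in any alternative. Among members not called, IRF7 changed sign with limma-voom (-0.11), and IFNAR2 (0.15 and 0.16) and OAS1 (0.034 and 0.048) on the TPM scales. Values without a library ran from -0.62 to 0.77 for IRF7, -0.076 to 0.027 for IFNAR2, -0.079 to 0.23 for IFIT1, -0.85 to 0.22 for ISG15, -0.33 to 0.83 for ISG20, -0.090 to 0.069 for OAS1, -0.032 to 0.19 for EIF2AK2 and, for IFNE of the further lists, -0.77 to 0.22. Depth limits the members under about 1 CPM, for which 3 counts amount to up to 0.199 CPM.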
